A study of Homo sapiens with 12 samples.

Results

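Salt-inducible kinases (SIKs) are relatives of the energy sensor AMPK that are activated by the tumour suppressor kinase LKB1. They phosphorylate the CREB-regulated transcription coactivators (CRTCs), which are then bound by 14-3-3 proteins and held in the cytoplasm. When cyclic AMP (cAMP) rises, protein kinase A (PKA) phosphorylates the SIKs and blocks this action, CRTCs enter the nucleus and bind the transcription factor CREB, and CREB target genes are induced. Among those targets are SIK1 itself, the repressor isoforms of CREM and the NR4A orphan nuclear receptors, so that the pathway feeds back on itself. In bone-forming cells, parathyroid hormone signals through PKA to inhibit SIK2 and SIK3.

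The mRNAs of 10 genes of this pathway were followed: the kinases SIK1, SIK2 and SIK3, the coactivators CRTC1, CRTC2 and CRTC3, the CREB family member CREM, and the nuclear receptors NR4A1, NR4A2 and NR4A3. They were taken by name from a table of 22379 genes. SIK1 was chosen because it kept more mRNA under triptolide in NUP93 knockout cells than in control cells, so every comparison of SIK1 that holds the NONT or NUP93-KO triptolide libraries is given as a description with no test, and SIK1 is left out of the counts of those comparisons. All 10 genes passed the filter on low values (an average value of 10 or more when the 6 untreated libraries are pooled), as did 13811 genes in all.

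The series comprises 12 poly(A) RNA-seq libraries of U2OS, an osteosarcoma line of human origin, in 6 groups of 2 replicates. The cells carried a nontargeting guide (NONT) or a guide against NUP93, a nuclear pore scaffold protein (NUP93-KO), or against EXOSC5, a core subunit of the RNA exosome (EXOSC5-KO), and each genotype was left untreated or received 1 μM triptolide for 8 h. Triptolide inhibits the XPB helicase of TFIIH and blocks initiation by RNA polymerase II. All 3 genotypes, controls included, had received Cas9 and the guide on a plasmid by transient transfection, followed by puromycin selection; the knockouts were pools rather than clones, in which unedited cells can remain.

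Values are in the unit the authors deposited, a read estimate per gene scaled to RNA spike-ins that were added per counted cell. They are meant to follow mRNA per cell. The sum of all genes ranged from 4.90 M to 16.4 M per library (M, mega), and the spacing of the lowest values placed the depth at about 8.56 M to 11.9 M reads. The NONT untreated libraries stood apart from each other by a median of -0.51 (log2, replicate 1 minus replicate 2) over the tested genes. EXOSC5 mRNA was 148 and 216 in untreated EXOSC5-KO against 299 and 481 in untreated NONT, and stayed lower under triptolide. NUP93 mRNA was 1395 and 1432 in untreated NUP93-KO against 1753 and 2489 in NONT, but overlapped with NONT under triptolide (801 and 1019 against 1007 and 899). Of 9 mesenchymal and osteoblast markers, VIM, FN1, SPARC, COL1A1 and CDH2 were at 762 or more in all libraries, COL1A2 reached at most 42.0 and TWIST1 was listed at 0 in all 12. Of 8 markers of other cell types, CD3E was at 0 in all 12, and the neuronal gene SYP (165 to 910) made up most of their sum.

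CREB binds the cAMP response element (CRE), whose full palindrome is TGACGTCA and whose half-site is TGACG. RefSeq promoter windows, 250 bases before to 50 bases after an annotated start (GRCh38.p14), were at hand for 8 members in 15 windows; NR4A2 and CRTC2 had none. The sequences before the start sites of the SIKs and NR4A3 are shown because they carried several half-sites, and an internal CREM window because it carried the full palindrome. Each is read 5′ to 3′ on the strand of its gene, and capitals mark TGACG on either strand (CGTCA on the strand shown).
SIK1 (chr21:43427132-43427381, minus strand): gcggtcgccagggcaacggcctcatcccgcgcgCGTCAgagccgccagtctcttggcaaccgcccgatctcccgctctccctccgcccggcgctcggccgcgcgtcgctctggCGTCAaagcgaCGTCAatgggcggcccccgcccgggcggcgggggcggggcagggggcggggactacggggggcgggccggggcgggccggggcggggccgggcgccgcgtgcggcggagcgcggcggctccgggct
SIK2 (chr11:111602199-111602448, plus strand): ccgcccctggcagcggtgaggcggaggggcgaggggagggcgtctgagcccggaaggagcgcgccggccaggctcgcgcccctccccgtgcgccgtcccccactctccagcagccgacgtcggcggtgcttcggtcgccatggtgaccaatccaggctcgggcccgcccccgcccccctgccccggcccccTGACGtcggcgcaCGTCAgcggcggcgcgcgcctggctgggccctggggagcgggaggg
SIK3 (chr11:117098429-117098678, minus strand): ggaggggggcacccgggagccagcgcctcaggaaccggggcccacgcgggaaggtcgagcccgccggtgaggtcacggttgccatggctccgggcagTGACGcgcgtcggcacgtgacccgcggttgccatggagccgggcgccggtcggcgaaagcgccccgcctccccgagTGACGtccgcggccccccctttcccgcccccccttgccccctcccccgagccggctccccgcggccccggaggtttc
CREM (chr10:35195652-35195879, plus strand): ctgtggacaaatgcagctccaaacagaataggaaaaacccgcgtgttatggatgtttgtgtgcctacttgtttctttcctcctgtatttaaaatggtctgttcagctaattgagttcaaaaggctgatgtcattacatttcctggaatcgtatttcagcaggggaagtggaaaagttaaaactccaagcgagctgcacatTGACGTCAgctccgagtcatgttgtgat
NR4A3 (chr9:99821635-99821884, plus strand): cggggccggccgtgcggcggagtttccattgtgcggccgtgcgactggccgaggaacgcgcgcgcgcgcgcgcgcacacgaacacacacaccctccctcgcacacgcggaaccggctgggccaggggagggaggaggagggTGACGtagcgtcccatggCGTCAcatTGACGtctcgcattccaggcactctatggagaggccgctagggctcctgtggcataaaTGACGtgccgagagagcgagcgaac

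The NR4A3 window held 4 half-sites, the SIK1 window 3, and the SIK2 and SIK3 windows 2 each. Of 35116 promoter windows of the same length, 24.6% held at least 1 half-site on either strand, 6.02% at least 2, 1.40% at least 3 and 0.313% at least 4. In SIK1 the half-sites began at −217, −137 and −126 bases from the start site, all on the opposite strand. In NR4A3 they began at −109, −91, −83 and −25. CREM had 7 windows, and the palindrome, present in 1.85% of all windows, lay at −50 of the one shown and at 2 of another that overlaps it. A further CREM window (chr10:35126977-35127276), not shown, held 2 half-sites that began at −178 and −68. CRTC3 held 1 half-site, and neither the CRTC1 window nor the 2 NR4A1 windows held any. A match is a stretch of letters and not evidence of binding.

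**Figure D1:**
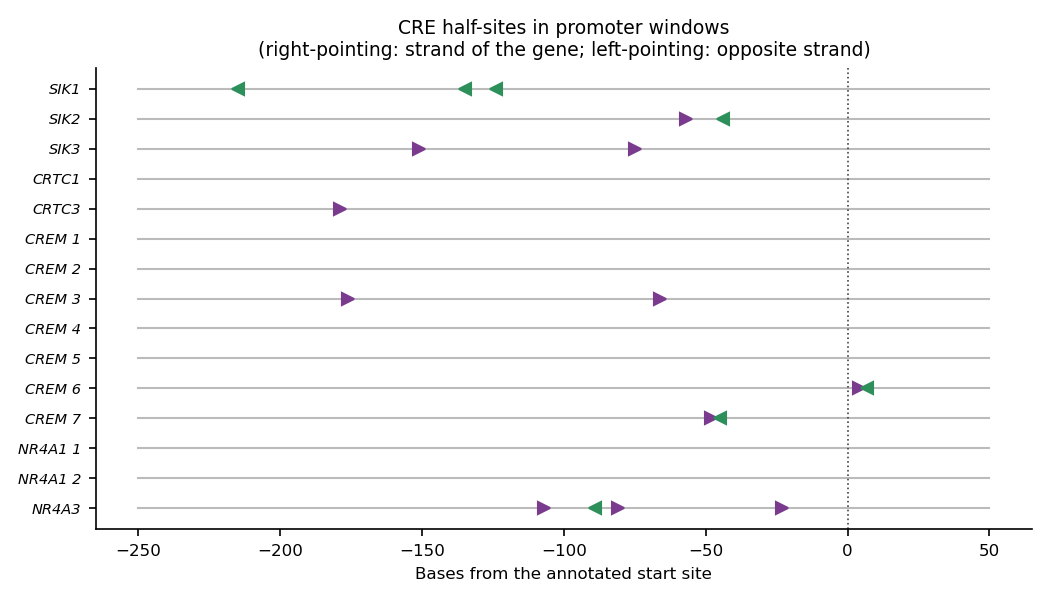
Positions of CRE half-sites in the RefSeq promoter windows of 8 members; the x axis is the distance in bases from the annotated start site, each grey line is one window (numbered by position where a gene has several) and arrowheads give the strand. NR4A3 carries 4 half-sites and SIK1 carries 3, and the overlapping pairs in CREM windows 6 and 7 are the full palindrome.

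Without drug, the members spanned a wide range. Per kb of the main transcript (MANE Select), the mean level in NONT (± SD, n = 2) was highest for CRTC2 (192 ± 45.3), followed by CRTC3 (99.2 ± 21.9), SIK2 (91.4 ± 12.7), CREM (66.5 ± 9.68), SIK3 (64.5 ± 21.0) and NR4A1 (53.5 ± 5.49). Lower levels were seen for CRTC1 (38.1 ± 8.21), SIK1 (34.7 ± 12.1), NR4A2 (9.27 ± 4.57) and NR4A3 (8.60 ± 2.27). The mean ± SD ranges of CRTC3, SIK2 and SIK3 overlapped each other, as did those of CREM, SIK3 and NR4A1. So did those of CRTC1 and SIK1, and those of NR4A2 and NR4A3. CRTC2, CRTC3 and SIK2 thus had the highest mean levels per length, and the inducible receptors NR4A2 and NR4A3 the lowest.

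The first question was how much of each mRNA was left when transcription was blocked. After triptolide NONT had 9 of 9 members lower, NUP93-KO 8 of 9 and EXOSC5-KO 10 of 10 by limma with Benjamini-Hochberg adjustment over all tested genes (adjusted p under 0.05). They stand against a background, for NONT, NUP93-KO and EXOSC5-KO, of 90%, 55.1% and 64.3% of all tested genes called lower, with 0.0507%, 0.138% and 0.0796% called higher. In each genotype both triptolide libraries lay below both untreated libraries for every member counted (9, 9 and 10), as they did for 94.8%, 79.1% and 88% of all genes. The median log2 change over these members was −2.08, −1.62 and −1.58, against −1.62, −0.92 and −1.08 over all genes. In bulk RNA, fewer cells with a transcript and fewer transcripts per cell cannot be told apart, and as the labels do not say that replicates came from separate cultures, p-values measure only the spread between these libraries.

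**Figure D2:**
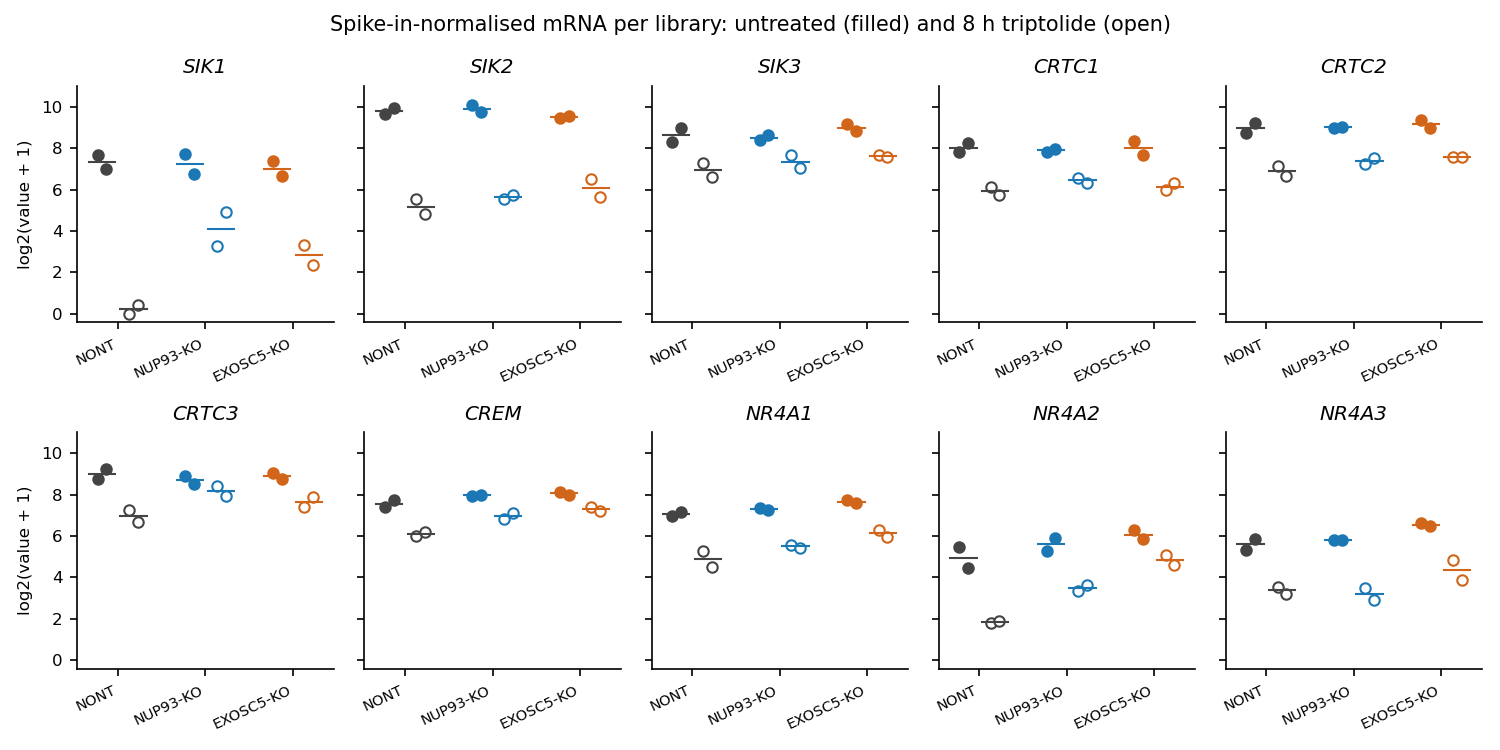
Spike-in-normalised values of the 10 members as log2(value + 1); each point is a library (filled, untreated; open, 1 μM triptolide for 8 h), grouped by genotype on the x axis, and short lines are group means of the log2 values (n = 2). SIK1 falls to 0 and 0.350 (before the log) in NONT but stays at 8.75 and 28.8 in NUP93-KO, while the open CRTC3 points in NUP93-KO sit just below the filled ones.

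SIK1 (ENSG00000142178; GRCh38, chr21:43414483-43427131, minus strand) is the most inducible of the SIKs. Without drug the NONT libraries measured 205 and 124, the NUP93-KO libraries 211 and 106 and the EXOSC5-KO libraries 164 and 100.1. After triptolide SIK1 was listed at 0 and 0.350 for NONT, while NUP93-KO held 8.75 and 28.8 and EXOSC5-KO held 9.02 and 4.12. The untreated groups overlapped. Under triptolide both knockouts lay above both NONT libraries, as did 75.6% of all genes in NUP93-KO and 75.1% in EXOSC5-KO. As SIK1 was chosen by the NONT and NUP93-KO values under triptolide, this separation is a description only.

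The NONT values under triptolide correspond to about 1 read over both libraries. SIK1 therefore kept 0.106% of its mRNA in NONT. An exact Poisson 95% interval for 1 read runs from 0.0253 to 5.57 reads and covers counting error only. A listed 0 in replicate 1 allows a value of up to 1.81 (3 counts). It kept 11.9% in NUP93-KO (4.16% to 27.1% over the 4 pairings of a triptolide with an untreated library) and 4.97% in EXOSC5-KO (2.51% to 9.01%). The mean under triptolide was 107-fold that of NONT in NUP93-KO and 37.5-fold in EXOSC5-KO. These ratios rest on about 1 read in NONT, 10.0 and 28.9 reads in NUP93-KO, and 9.64 and 5.00 reads in EXOSC5-KO. So few reads leave their size very uncertain. As SIK1 was chosen by the NONT and NUP93-KO values, the ratios are a description and were not tested.

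On the log2(value + 1) scale, which understates changes of low genes, SIK1 changed by −7.11 ± 0.60 (SE) in NONT and by −3.14 ± 0.60 in NUP93-KO, a difference in response of 3.97 ± 0.84. These values chose the gene and were not tested. In EXOSC5-KO, whose libraries the choice did not use, SIK1 fell by 4.17 ± 0.60 (adjusted p = 1.40e-05). Its level under triptolide stood 2.62 ± 0.60 above that of NONT in EXOSC5-KO, with a difference in response of 2.94 ± 0.84. These last values rest on the NONT libraries by which SIK1 was chosen and were not tested either, and with a pseudocount of 5 they were 1.13 and 1.43. RefSeq lists a near-identical copy of SIK1 on the same chromosome (LOC102724428, also SIK1B, chr21:6111131-6123778) that was not analysed here, and reads shared with it leave the SIK1 values uncertain.

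SIK2 (ENSG00000170145; chr11:111602449-111730855, plus strand), a main CRTC kinase in many tissues, kept the smallest share of the 10 members in NUP93-KO. It measured 793 and 966 untreated and 45.5 and 27.3 treated in NONT, 1075 and 848 untreated and 45.4 and 51.8 treated in NUP93-KO, and 707 and 750.1 untreated and 88.8 and 48.2 treated in EXOSC5-KO. SIK2 fell in every genotype, with log2 changes of −4.60 ± 0.31 in NONT (adjusted p = 1.80e-09), −4.27 ± 0.31 in NUP93-KO (adjusted p = 1.42e-08) and −3.46 ± 0.31 in EXOSC5-KO (adjusted p = 1.02e-07), and kept 4.13%, 5.05% and 9.40%. In NONT only 8.04% of tested genes kept less. The NUP93-KO share lay within the NONT pairings (2.82% to 5.74%), and the EXOSC5-KO pairings (6.43% to 12.6%) lay above them, as they did for 41.8% of all genes. The EXOSC5-KO difference in response, 1.14 ± 0.44, did not pass the test (adjusted p = 0.183).

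SIK3 (ENSG00000160584; chr11:116843402-117098437, minus strand), a broadly expressed SIK with roles in bone growth and sleep, lost far less. It measured 316 and 505 untreated and 153 and 97.2 treated in NONT, 333 and 393 untreated and 201 and 130.2 treated in NUP93-KO, and 569 and 453 untreated and 202 and 192 treated in EXOSC5-KO. It kept 30.5%, 45.6% and 38.6%, close to the median gene, which kept 31.4%, 52.5% and 47.2%. The log2 changes were −1.70 ± 0.30, −1.16 ± 0.30 and −1.36 ± 0.30 (adjusted p = 6.68e-05, 0.00342 and 8.42e-04). Relative to the median gene of the same genotype, SIK1 and SIK2 moved by −5.49 and −2.98 for NONT, by −2.22 and −3.35 for NUP93-KO and by −3.10 and −2.38 for EXOSC5-KO, and SIK3 by −0.08, −0.24 and −0.29.

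**Figure D3:**
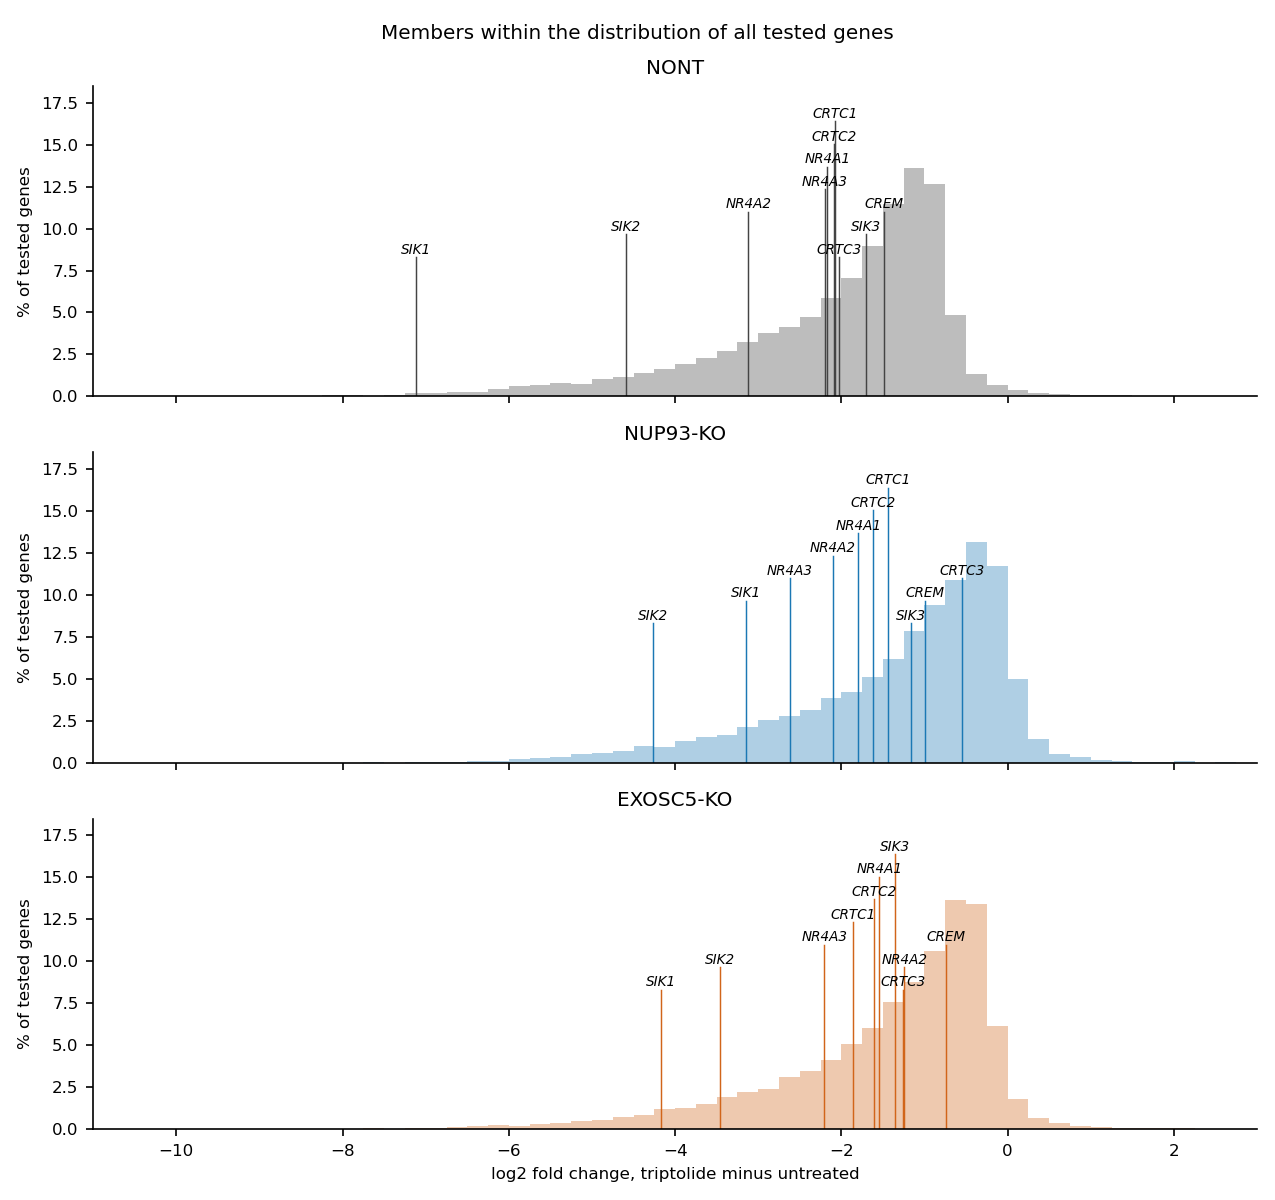
Log2 fold change after triptolide in each genotype; bars give the percentage of the 13811 tested genes in steps of 0.25 and vertical lines mark the 10 members. SIK1 and SIK2 lie in the lower tail in every genotype (SIK1 at −7.11 in NONT), whereas CREM and SIK3 lie near the bulk and CRTC3 moves to −0.54 in NUP93-KO.

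The CRTC coactivators are the substrates through which SIKs restrain CREB. CRTC1 (ENSG00000105662) measured 222 and 302 untreated and 69.0 and 53.0 treated in NONT, 223 and 249.6 untreated and 93.0 and 80.0 treated in NUP93-KO, and 321 and 202 untreated and 62.4 and 77.5 treated in EXOSC5-KO. CRTC2 (ENSG00000160741), known for its part in hepatic glucose production, measured, in the same order, 419.7 and 588 then 138 and 98.3, 506 and 524 then 151 and 183, and 655 and 505 then 188 and 187. CRTC1 kept 23.3%, 36.6% and 26.8% across the genotypes, and CRTC2 kept 23.4%, 32.5% and 32.3%. All 6 declines passed the test, from −2.08 ± 0.31 for CRTC1 and −2.08 ± 0.25 for CRTC2 in NONT to −1.44 ± 0.31 and −1.62 ± 0.25 in NUP93-KO (adjusted p from 1.36e-06 to 7.74e-04).

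CRTC3 (ENSG00000140577; chr15:90529923-90645345, plus strand) kept the largest share of the 10 members in NUP93-KO. It measured 437 and 598 untreated and 153 and 101 treated in NONT, 519.9 and 425 untreated and 166 and 232 treated in EXOSC5-KO, and 479 and 366 untreated against 336 and 245 treated in NUP93-KO. It kept 24.6% in NONT, 68.7% in NUP93-KO (51.1% to 91.8% over pairings) and 42.1% in EXOSC5-KO. Both NUP93-KO triptolide libraries lay below both untreated ones, as for 79.1% of all genes. The NUP93-KO difference of −0.54 ± 0.28 did not pass the limma test (adjusted p = 0.115). With libraries set to the same total it was 0.023, and by median of ratios 0.35. With libraries set to the same sum of mitochondrially encoded mRNAs it was −0.85 and passed the limma test (adjusted p = 0.00508). Both its direction and its call thus depend on the scale.

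Under triptolide CRTC3 was higher in NUP93-KO than in NONT by 1.20 ± 0.28 (adjusted p = 0.00780). Its difference in response was 1.48 ± 0.40 (adjusted p = 0.0586), larger than for 92.2% of tested genes and above their median of 0.74. It passed the limma test when genes with an untreated mean of at least 50 were tested (adjusted p = 0.0379). In that setting 9.01% of all genes were called with a smaller loss in NUP93-KO, against 0.76% in the main fit. Under no other alternative that kept both libraries of every group did it pass. The difference was 1.71 without replicate 1 of NONT untreated and 1.78 without replicate 1 of NONT triptolide, where the median gene stood at 1.00 and 0.86.

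**Figure D4:**
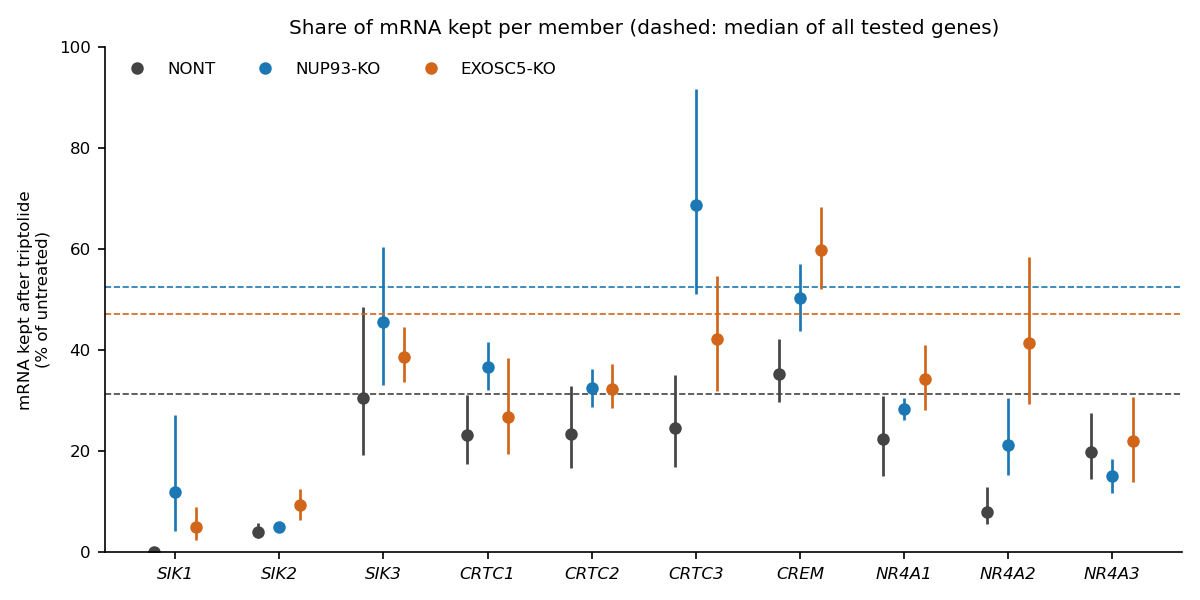
Percentage of mRNA kept after triptolide (mean of 2 triptolide over mean of 2 untreated libraries) for each member; points are genotypes, vertical lines the range over the 4 pairings of libraries, and dashed lines the median of all tested genes (31.4% NONT, 52.5% NUP93-KO, 47.2% EXOSC5-KO). SIK1 and SIK2 stay below 12.6% except for one NUP93-KO range of SIK1 up to 27.1%, and CRTC3 reaches 68.7% in NUP93-KO.

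CREM (ENSG00000095794; chr10:35126791-35212958, plus strand) encodes CREB-like activators and, from an internal promoter, the inducible repressor ICER, and the values sum all isoforms, so that ICER cannot be told apart. CREM measured 170.4 and 209 untreated and 62.2 and 71.9 treated in NONT, 242 and 254 untreated and 111 and 138 treated in NUP93-KO, and 282 and 249.8 untreated and 171 and 147 treated in EXOSC5-KO. It kept the largest share of the 10 members in NONT (35.3%) and in EXOSC5-KO (59.8%), and 50.3% in NUP93-KO. CREM fell in all 3 genotypes, by log2 changes of −1.48 ± 0.26, −0.99 ± 0.26 and −0.74 ± 0.26 (adjusted p = 7.25e-05, 0.00403 and 0.0214). By median of ratios the change was 0.14, −0.11 and 0.33, so that its sign depends on the scale in NONT and EXOSC5-KO, while with libraries set to the same sum of mitochondrially encoded mRNAs it was −1.13, −1.29 and −0.84. The EXOSC5-KO call was lost without any one of the 4 EXOSC5-KO libraries (adjusted p from 0.0513 to 0.136), and the NUP93-KO call without replicate 1 of NUP93-KO triptolide (adjusted p = 0.0537). Under triptolide CREM was higher than in NONT by 0.88 ± 0.26 in NUP93-KO (adjusted p = 0.0186) and by 1.23 ± 0.26 in EXOSC5-KO (adjusted p = 0.00400).

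The NR4A receptors are immediate-early orphan nuclear receptors that bind DNA without a known classical hormone. NR4A1 (Nur77, ENSG00000123358) measured 123 and 142 untreated and 38.0 and 21.6 treated in NONT, 162 and 151 untreated and 46.2 and 42.6 treated in NUP93-KO, and 214 and 191 untreated and 78.6 and 60.2 treated in EXOSC5-KO. NR4A3 (NOR1, ENSG00000119508) measured, in the same order, 39.2 and 57.2 then 10.8 and 8.36, 54.7 and 55.9 then 10.1 and 6.53, and 96.5 and 89.2 then 27.4 and 13.5. Both fell in all 3 genotypes, NR4A1 with log2 changes of −2.17 ± 0.34, −1.80 ± 0.34 and −1.54 ± 0.34 and NR4A3 with −2.20 ± 0.48, −2.62 ± 0.48 and −2.21 ± 0.48 (adjusted p from 1.98e-05 to 8.16e-04). NR4A3 kept 19.9%, 15.1% and 22.0%, and was the only member that kept less in NUP93-KO than in NONT, a difference within the range over pairings.

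NR4A2 (Nurr1, ENSG00000153234; chr2:156324437-156342348, minus strand), known for its part in dopamine neurons, had the widest spread between genotypes of the 3 NR4A genes in the share kept. It measured 43.4 and 21.0 untreated and 2.47 and 2.71 treated in NONT, 38.0 and 59.4 untreated and 9.11 and 11.6 treated in NUP93-KO, and 78.4 and 56.2 untreated and 32.8 and 23.0 treated in EXOSC5-KO. The share kept was 8.05% (5.69% to 12.9% over pairings), 21.3% (15.4% to 30.6%) and 41.4% (29.3% to 58.4%). The 3 ranges for NONT, NUP93-KO and EXOSC5-KO thus overlapped between the knockouts but not with NONT. All 4 pairings likewise lay above all 4 of NONT for 55.3% of all genes in NUP93-KO and 41.8% in EXOSC5-KO. NR4A2 fell throughout, with log2 changes of −3.12 ± 0.52 for NONT, −2.10 ± 0.52 for NUP93-KO and −1.24 ± 0.52 for EXOSC5-KO (adjusted p = 4.19e-05, 0.00258 and 0.0468), and the last passed only narrowly. The EXOSC5-KO call was lost under 12 of 21 alternatives. Among these were the same total (−0.47), median of ratios (−0.20) and the same mitochondrial sum (−1.33). Under triptolide NR4A2 was higher than in NONT by 1.66 ± 0.52 in NUP93-KO (adjusted p = 0.0225) and by 2.99 ± 0.52 in EXOSC5-KO (adjusted p = 0.00130). The NONT values under triptolide correspond to only about 4.10 and 5.53 reads. With a pseudocount of 5 the NUP93-KO difference was 1.01 and lost its call (limma adjusted p = 0.0606), whereas the EXOSC5-KO call held under all 21 alternatives. The differences in response, 1.02 ± 0.74 and 1.88 ± 0.74, did not pass the test (adjusted p = 0.283 and 0.184).

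The second question was whether the knockouts changed these mRNAs before transcription was blocked. No member passed the limma test in either knockout, where 0.0145% of all genes were called higher and 0.00724% lower in NUP93-KO, and 0.485% higher and 0.0362% lower in EXOSC5-KO. At an unadjusted p under 0.05 there were 0 members in NUP93-KO (4.2% of all genes) and 1 in EXOSC5-KO, NR4A2 (8.49%). In EXOSC5-KO, both libraries lay above both NONT libraries for CREM, NR4A1, NR4A2 and NR4A3, that is 4 of 10 members against 19.2% of all genes, and below them for SIK2 (1 of 10 against 9.2%). The differences of those 4 from NONT were 0.49 ± 0.26, 0.61 ± 0.34, 1.11 ± 0.52 and 0.95 ± 0.48 in log2, and none passed the test (adjusted p from 0.588 to 0.713). In NUP93-KO, CREM and NR4A1 lay above both NONT libraries (2 of 10 against 7.93%), and no member lay below both (12.8% of all genes). SIK1 and the 3 CRTCs overlapped with NONT in both knockouts, with SIK1 at −0.31 ± 0.60 in EXOSC5-KO.

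Under triptolide the knockouts held more of several members, as they did of most genes. For the median tested gene the log2 gain over NONT was 0.66 with the NUP93 knockout and 0.65 with that of EXOSC5. Higher levels than in NONT passed the test for 3 of the 9 members tested in NUP93-KO (CRTC3, CREM and NR4A2), against 41.9% of all genes, and for 5 of 9 in EXOSC5-KO (SIK2, CRTC2, CREM, NR4A1 and NR4A2), against 39.2%. None passed as lower, against 0.188% and 0.195% of all genes. Both knockout libraries lay above both NONT libraries for 6 of these 9 members in NUP93-KO and 8 in EXOSC5-KO, against 75.6% and 75.1% of all genes, and below them for none, against 1.59% and 1.97%. In EXOSC5-KO the differences of SIK2, CRTC2 and NR4A1 were 0.87 ± 0.31, 0.68 ± 0.25 and 1.23 ± 0.34 (adjusted p = 0.0374, 0.0431 and 0.0127). They were larger than those of 68.4%, 53.3% and 84.8% of tested genes, so that CRTC2 lay close to the median gene. Of 22 alternatives, SIK2 lost its call under 9, NR4A1 under 6 and CRTC2 under 15, and with the same mitochondrial sum the differences were 0.060 for SIK2, 0.42 for NR4A1 and −0.14 for CRTC2. CREM lost its NUP93-KO call under 7 and its EXOSC5-KO call under 2, CRTC3 its NUP93-KO call under 5, and NR4A2 its NUP93-KO call under 8 of 21. The counts also depended on single libraries, as did those of all genes. Without replicate 2 of NONT triptolide the NUP93-KO differences were 0.90 for CRTC3, 0.98 for CREM and 1.70 for NR4A2, with the median gene at 0.53. In EXOSC5-KO they were then 0.52 for SIK2, 0.44 for CRTC2 and 0.84 for NR4A1, with the median gene at 0.50. Without replicate 1 of EXOSC5-KO triptolide SIK2 stood at 0.44, CRTC2 at 0.68 and NR4A1 at 1.04. Without replicate 1 of NUP93-KO triptolide CRTC3 stood at 0.97, and without replicate 2 CREM stood at 0.73.

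**Figure D5:**
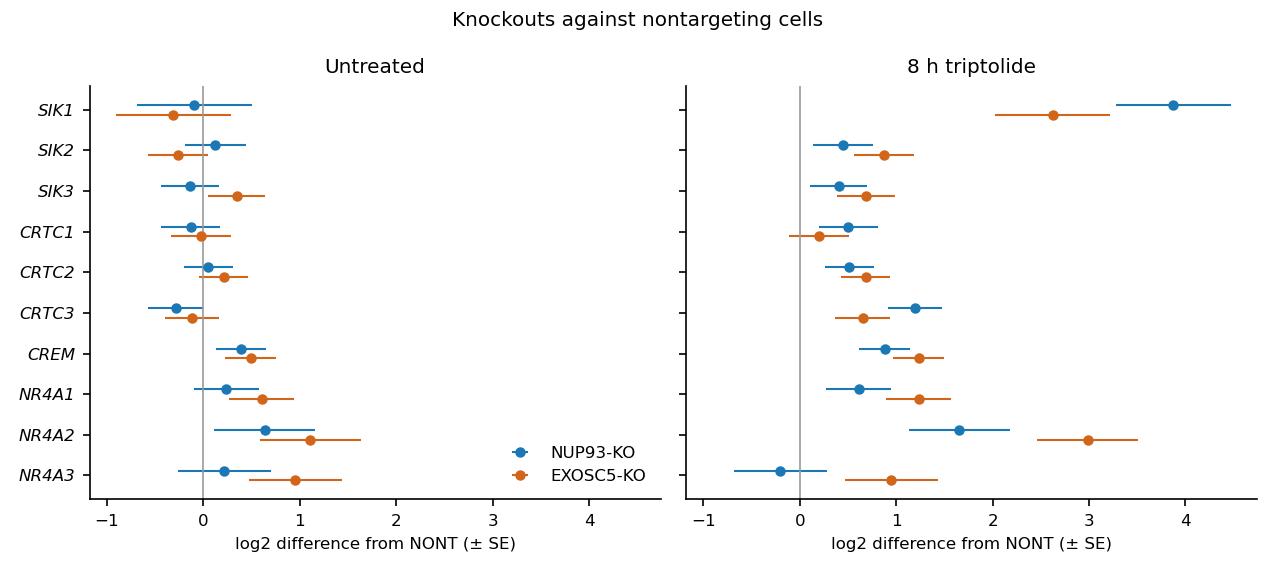
Log2 difference (± SE from limma) of each knockout from NONT without drug (left) and under triptolide (right), per member. Without drug all differences lie between −0.31 and 1.11. Under triptolide 9 of 10 members lie above 0 in NUP93-KO and 10 of 10 in EXOSC5-KO, with SIK1 at 3.88 and 2.62. The median tested gene lies at 0.66 and 0.65 under triptolide, and neither SIK1 value under triptolide was tested.

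The response itself did not differ from NONT for any tested member by limma: 0 of 9 in NUP93-KO, where 0.76% of all genes were called with a smaller loss and 0.0145% with a larger one, and 0 of 9 in EXOSC5-KO (0.319% and 0.0145%). At an unadjusted p under 0.05 there was 1 in NUP93-KO (CRTC3) against 41.6% of all genes, and 2 in EXOSC5-KO (SIK2 and NR4A2) against 23.5%. All 4 pairings kept more than all 4 of NONT for CRTC1, CRTC3, CREM and NR4A2 in NUP93-KO, 4 of 9 members against 55.3% of all genes, and for SIK2, CREM and NR4A2 in EXOSC5-KO, 3 of 9 against 41.8%. Neither share exceeds the background. Both comparisons use the same NONT libraries.

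The members also differed in the 3′ untranslated regions (3′UTRs) of their MANE Select transcripts (GENCODE release 44). The pentamer ATTTA, a core of AU-rich elements bound by factors that control mRNA decay, was counted on the transcript strand. NR4A3 held 10 copies in 3024 bases and SIK2 held 9 in 6726, more than in 84.0% and 81.5% of 12787 tested genes, whose median was 2. CRTC3, CREM and NR4A2 held 4 each, SIK1 and NR4A1 held 3, CRTC1 held 1, and SIK3 and CRTC2 held none. The longer form TATTTAT, present in 37.1% of genes, occurred 2 times in NR4A3 and 1 time in NR4A2. Per kb of 3′UTR, SIK2 (1.34) and SIK1 (1.33) were alike, and NR4A1 had the highest density of the members (5.37).

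Other genes of the pathway were counted from lists drawn up by function. Of 21 genes that regulate SIKs or are further SIK substrates, NONT had 20 lower after triptolide, NUP93-KO 12 and EXOSC5-KO 18, against the 90%, 55.1% and 64.3% of all genes given above. Their median log2 changes were −2.37, −1.39 and −1.29, against −1.62, −0.92 and −1.08 over all genes. MEF2D, a transcription factor that class IIa histone deacetylases repress unless SIKs keep them in the cytoplasm, went in NONT from 399.9 and 655 to 14.9 and 14.6, and was left at 37.3 and 48.0 in NUP93-KO and at 42.5 and 49.0 in EXOSC5-KO. HDAC7, one of those deacetylases, went from 2070 and 2956 to 348 and 221 in NONT. Under triptolide 8 of the 21 were higher in NUP93-KO than in NONT and 7 in EXOSC5-KO, MEF2D among both, where 41.9% and 39.2% of all genes were.

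Of 22 tested genes of the cAMP, PKA and CREB machinery, 19, 7 and 12 were lower after triptolide in NONT, NUP93-KO and EXOSC5-KO, with medians of −1.40, −0.69 and −0.86. The share called lower was close to the 90% of all genes in NONT, below the 55.1% in NUP93-KO and somewhat below the 64.3% in EXOSC5-KO. The medians were nearer to 0 than those of all genes (−1.62, −0.92 and −1.08). Whether the list differed from all genes was not tested. The histone acetyltransferases EP300 and CREBBP, coactivators of CREB, led the declines, from 1156 and 1622 to 58.6 and 53.1 and from 1141 and 1348 to 79.8 and 38.4 in NONT. CREB1, which encodes CREB, went from 392 and 540.1 to 73.7 and 38.4. Under triptolide 9 of 22 were higher in NUP93-KO and 6 in EXOSC5-KO, CREBBP among both, again against 41.9% and 39.2%.

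Of 21 tested cAMP-inducible CREB targets outside the members, 19, 16 and 18 were lower, with medians of −4.17, −3.48 and −3.59 that lay further from 0 than those of all genes; the share called lower was close to the background of 90% in NONT and above 55.1% and 64.3% in the knockouts. DUSP1, a phosphatase of MAP kinases, went from 1223 and 1713 to 3.01 and 0.489 in NONT, while NUP93-KO held 10.5 and 5.97 and EXOSC5-KO held 5.62 and 9.88. The transcription factor EGR1 went from 458 and 627 to 1.81 and 2.45. JUNB, an AP-1 subunit, went from 455 and 657 to 3.01 and 2.44 in NONT, with 15.7 and 20.9 left for NUP93-KO and 18.7 and 12.4 for EXOSC5-KO. Under triptolide 8 of 21 were higher in each knockout than in NONT, JUNB among both, which is about the share of all genes (41.9% and 39.2%). In these 3 lists no gene passed the limma test for a difference without drug or for a difference in response, while at an unadjusted p under 0.05 NUP93-KO had 1, 0 and 0 genes without drug and 12, 6 and 7 for the response, and EXOSC5-KO had 3, 2 and 3 and then 5, 3 and 5. Over all genes this share was 4.2% without drug and 41.6% for the response with the NUP93 knockout, against 8.49% and 23.5% with that of EXOSC5.

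The genes whose pattern over the 12 libraries was most like that of SIK1 were LHFPL2 (Pearson r = 0.987 of log2 values), CCDC106 (0.977), ZNF668 (0.976), LSM11 (0.976) and ZNF160 (0.976). The 12 libraries share the response to triptolide, and r is given as a description. ZNF668 came closest in its levels, at 139 and 227 in untreated NONT and at 0.635 and 0 under triptolide, where NUP93-KO held 5.24 and 14.0 and EXOSC5-KO held 10.9 and 2.92. Among the other members r with SIK1 ranged from 0.801 for NR4A3 to 0.927 for CRTC2. Of all tested genes, 33.4% had a lower r than NR4A3 and 84.8% a lower r than CRTC2.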

How the data were processed

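Spike-in RNAs (ERCC, polyadenylated) were added by the authors at lysis in proportion to counted cells, and strand-specific poly(A) libraries were sequenced. Per the study's methods, reads were pseudoaligned with kallisto 0.46.1 (version per the submitters' processing notes) to the GRCh38 transcriptome, summarised per gene and restricted to protein-coding genes. The deposited values are a spike-in-normalised signal, which the authors made by dividing gene estimates by DESeq2 size factors computed on 92 ERCC transcripts. They are not counts, an error in a cell count or in the spike-in moves a whole library, and reads shared between near-identical genes are divided between them. The ERCC sum was 40022 to 42811 per library.

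From these values, log2(value + 1) of genes with an untreated mean of at least 10 was fitted with limma 3.58.1 in R 4.3.3 (6 group means, all 12 libraries, mean-variance trend, 9 contrasts, two-sided, Benjamini-Hochberg over 13811 genes, threshold 0.05). The fit was also run on simulated data with independent noise. These held no shift of a whole library, so that run cannot show how such shifts affect the calls. The study's own tests used DESeq2 on counts, which are not the deposited unit. Depth was about 8.56 M to 11.9 M reads (M, mega), where 1 read was worth about 0.490 to 1.76. Symbols came from GENCODE release 44 (19309 of 22379 IDs matched, 3070 did not). Groups came from the sample labels. Percentages kept are ratios of group means. The members and lists were chosen with earlier results of these data known. All members were named, and from each further list at most 3 genes per direction with the largest change past the threshold. Alternatives changed the pseudocount, filter, scale, trend, replicate block, groups in the fit and each single library.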

Additional observations from a re-analysis of the deposited data

How the results depend on the processing

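Of 1136 values of single members under the alternatives, 1024 kept their direction and their side of the threshold (or, for untested SIK1 values, stayed within 1 SE), 87 lost the threshold, 4 gained it, 6 changed sign and 15 untested SIK1 values moved. With libraries rescaled by median of ratios, members called after triptolide dropped from 9 to 3 in NONT, from 8 to 5 in NUP93-KO and from 10 to 5 in EXOSC5-KO, and with the same total from 10 to 6 in EXOSC5-KO. Over all genes the share called lower by median of ratios was 31.4%, 30.9% and 29.8%, in place of 90%, 55.1% and 64.3%. With the same total it was 37.6% in EXOSC5-KO. Both scales set the shared loss of mRNA near 0: the median gene changed by −0.32 and −0.02 in NONT against −1.62 on the spike-in scale. Signs changed for CREM after triptolide (median of ratios, 0.14 in NONT and 0.33 in EXOSC5-KO; same total, 0.049 in EXOSC5-KO), for CRTC3 in NUP93-KO (same total, 0.023; median of ratios, 0.35) and for CRTC2 between EXOSC5-KO and NONT under triptolide (same mitochondrial sum, −0.14).

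Under triptolide, members higher in NUP93-KO than in NONT dropped from 3 to 0 with the same total, median of ratios and the same mitochondrial sum. The share of all genes called higher dropped there from 41.9% to 3.87%, 3.62% and 0.926%. Members higher in EXOSC5-KO dropped from 5 to 2, 1 and 1 on these scales, to 2 with only the groups compared in the fit, and to 3 without the filter on low values and without the trend. The share of all genes called higher in EXOSC5-KO dropped from 39.2% to 9.23%, 6.86% and 1.64% on these scales. It was 29.0% with only the groups compared, 23.1% without the filter and 27.6% without the trend. With an untreated mean of at least 50, 1 response (CRTC3) differed between NUP93-KO and NONT in place of 0. The share of all genes called with a smaller loss rose there from 0.76% to 9.01%. Leaving out each library in turn gave 9 to 9 members after triptolide in NONT, 7 to 8 in NUP93-KO and 8 to 10 in EXOSC5-KO; under triptolide 0 to 3 in NUP93-KO and 2 to 7 in EXOSC5-KO; for the response 0 to 1 in NUP93-KO and 0 to 0 in EXOSC5-KO; and without drug 0 to 0 in both. Under triptolide and for the response, the number of all genes called also moved with the library left out. SIK1 in NUP93-KO against NONT under triptolide was 2.06 to 4.68 over all alternatives.

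The replicate numbers did not pair the libraries: over 15 pairs of groups the correlation of same-numbered deviations was −0.05 to 0.04. With the replicate block, 9 of 10 members passed after triptolide in EXOSC5-KO (NR4A2 did not, adjusted p = 0.0566) and 4 of 9 differed between EXOSC5-KO and NONT under triptolide (CRTC2 did not, adjusted p = 0.0564), with no other call changed. The sum of SIK1 and SIK1B was not run. With 2 libraries a group, and about 1 read of SIK1 in NONT under triptolide, small differences were not detectable.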
